A study of Caenorhabditis elegans with 2 samples.

Results

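SOMI-1 binding was examined at 6 C. elegans genes, tasp-1, cdc-48.1, puf-9, ftt-2, mif-4 and ipla-6, whose promoters carried the strongest SOMI-1-eGFP peaks outside ribosomal protein genes. SOMI-1 is a zinc finger protein named from a genetic screen in which its loss suppressed the defects of worms that overexpress the let-7 family microRNA mir-84. The genes were selected on the signal itself: each is a protein-coding gene, not a ribosomal protein gene, whose promoter window holds 1 of the 20 strongest of the 1667 peak summits that passed the authors' reproducibility threshold. The promoter window took in the 1000 bp before and the 200 bp after the annotated 5′ end of each transcript. The 6 members share 5 promoter summits, because mif-4 and ipla-6 are transcribed away from each other and 1 summit lies between them. Of the 20 strongest summits, 10 lay in the promoter window of a protein-coding gene, and these windows belonged to 15 of 19973 protein-coding genes (0.0751%), of which the members are 6. That count is fixed by the selection and nothing is read from it. The remaining 9 genes were the ribosomal protein genes rpl-3, rpl-15, rpl-20 and rpl-35, the genes K01G5.10, Y17G9B.5 and K11H12.8, which share a peak with tasp-1, rpl-20 or rpl-15, and the pair nhl-2 and tag-340. The last 5 of these are not ribosomal protein genes and meet the same criteria, but they are not among the 6 genes named for study, so the members are a chosen subset.

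The data are chromatin immunoprecipitation with sequencing (ChIP-seq), in which DNA crosslinked to a protein is pulled down and sequenced, and places with many fragments are listed as peaks. There were 2 biological replicates of 1 group, so no comparison between conditions was possible. Both replicates were whole young adult worms of strain OP752, aged 65.5 hours after synchronisation by bleaching and L1 starvation, pooled from males and females. The strain carries unc-119(tm4063) and the transgene wgIs752, in which somi-1 is joined to TY1, EGFP and 3xFLAG so that SOMI-1 bears the tag at its C-terminal end, together with unc-119(+). The worms may also hold the untagged protein, which an anti-GFP antibody does not see. The labels' description names an anti-GFP antibody, while the antibody field names somi-1. Chromatin was sonicated to 200 to 800 bp. Since whole animals were used, binding in few cells and weak binding in many cells cannot be told apart, and both replicates come from 1 transgenic strain. Peaks were listed 4 times, with 29600 peaks in replicate 1, 26067 in replicate 2, 26266 when both replicates were called jointly and 1667 in the thresholded list. The number of reads per sample is unknown here. The peak strength used throughout is the authors' signal score, whose scale is not stated, and it is used to describe and order peaks within a list.

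A promoter is the stretch next to the 5′ end of a gene where transcription factors and the transcription machinery bind. Worm genes lie close together, so that a stretch between a pair of genes read in opposite directions can serve both, and trans-splicing, which replaces the first stretch of many worm transcripts, can leave the annotated 5′ end away from the true start of transcription. The 6 members have unlike roles. The gene tasp-1 encodes the worm counterpart of taspase 1, a protease that in mammals cuts the MLL histone methyltransferases and the general transcription factor TFIIA. The gene cdc-48.1 encodes a p97-type AAA ATPase, which pulls ubiquitin-tagged proteins out of complexes and membranes for degradation. The gene puf-9 encodes a Pumilio-family protein, which binds 3′ ends of messenger RNAs and is known in C. elegans for repressing hbl-1 in the developmental timing pathway. The gene ftt-2 encodes a 14-3-3 protein, which binds phosphorylated partners and is known to hold the FOXO factor DAF-16 in the cytoplasm. The gene mif-4 belongs to the family of macrophage migration inhibitory factor, and ipla-6 to the patatin-like phospholipases.

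The 101 bases centred on each promoter summit are printed because they are the DNA at the strongest point of each peak. Capitals mark any of 5 words that were searched for on both strands, none of which contains another. They include GACGCA, a word frequent at thresholded summits, and the purine repeat GAGAGA, which is more frequent there. The others are the palindromic E-box CACGTG, which basic helix-loop-helix factors bind, the GATA-type word TGATAA, and the forkhead core GTAAACA, which DAF-16 binds. Capitals also mark 4 six-letter words that 3 of the 5 windows share, counted with their reverse complements and named further on. Where capitals run on, neighbouring words touch or overlap. Sequences are 5′ to 3′ on the strand of the gene, and on the strand of ipla-6 for the shared summit, from the RefSeq genome WBcel235, which is the same assembly as ce11. The tasp-1 window is chrIII:10759211-10759311 (+), the cdc-48.1 window chrII:10563509-10563609 (−), the puf-9 window chrX:5841245-5841345 (+), the ftt-2 window chrX:11605918-11606018 (−) and the mif-4 and ipla-6 window chrIV:6336811-6336911 (+).
tasp-1: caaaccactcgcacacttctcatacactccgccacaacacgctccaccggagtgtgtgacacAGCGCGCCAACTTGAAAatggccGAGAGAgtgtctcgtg
cdc-48.1: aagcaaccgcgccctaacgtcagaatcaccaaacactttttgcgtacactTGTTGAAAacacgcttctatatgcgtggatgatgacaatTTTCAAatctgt
puf-9: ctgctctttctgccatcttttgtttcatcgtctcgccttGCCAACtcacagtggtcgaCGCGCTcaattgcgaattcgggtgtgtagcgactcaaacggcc
ftt-2: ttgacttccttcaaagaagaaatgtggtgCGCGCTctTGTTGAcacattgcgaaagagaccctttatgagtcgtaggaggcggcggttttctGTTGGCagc
mif-4/ipla-6: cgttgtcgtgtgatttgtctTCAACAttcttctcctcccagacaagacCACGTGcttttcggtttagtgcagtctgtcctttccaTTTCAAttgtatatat

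The strongest member was tasp-1 (WBGene00010480, chromosome III, 10759307 to 10763021, plus strand, ce11). Its peak covered 10759080 to 10759419, which takes in the annotated 5′ end of the gene, and its summit at 10759261 lay 46 bp upstream. The joint signal was 810.0, rank 2 in the list after rpl-3 at 841, and 6.5 times the median of 125 over the 1667 thresholded peaks. In replicate 1 the signal at this place was 432.7, the highest of all 29600 peaks, and in replicate 2 it was 377.4, rank 2. The summits in the replicates were 7 bp apart. The tasp-1 peak was the only one of the 5 that scored higher in replicate 1 than in replicate 2, with a log2 ratio of replicate 2 to replicate 1 of -0.20.

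The cdc-48.1 gene (WBGene00007352, chromosome II, 10560036 to 10563407, minus strand) had its promoter peak at 10563423 to 10563695, upstream of the annotated gene, with the summit at 10563559, 152 bp upstream of the 5′ end. The joint signal was 500.3 (rank 11), with 228.1 in replicate 1 (rank 12) and 272.8 in replicate 2 (rank 9). The replicate summits were 13 bp apart. This peak was second among the members in each replicate, below tasp-1 and above the other 3.

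The puf-9 gene (WBGene00004245, chromosome X, 5841592 to 5845987, plus strand) had its promoter peak at 5841151 to 5841436 with the summit at 5841295, 297 bp upstream. The joint signal was 445.1 (rank 16), with 205.2 in replicate 1 (rank 24) and 240.4 in replicate 2 (rank 16), and the replicate summits were 3 bp apart. The ftt-2 gene (WBGene00001502, chromosome X, 11603708 to 11605419, minus strand) had its peak at 11605798 to 11606144 with the summit at 11605968, 549 bp upstream. Its joint signal was 439.5 (rank 17), with 211.2 in replicate 1 (rank 20) and 234.4 in replicate 2 (rank 19), and the replicate summits were 13 bp apart.

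The genes mif-4 (WBGene00003237, chromosome IV, 6335230 to 6335994, minus strand) and ipla-6 (WBGene00022233, chromosome IV, 6337653 to 6340098, plus strand) share the peak at 6336733 to 6337029. Its summit at 6336861 lay 867 bp upstream of mif-4 and 792 bp upstream of ipla-6. The joint signal was 435.5 (rank 20), with 191.4 in replicate 1 (rank 31) and 242.0 in replicate 2 (rank 15). The replicate summits were 3 bp apart, and the log2 ratio of replicate 2 to replicate 1 was 0.34, the highest among the 20 strongest summits.

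**Figure D1:**
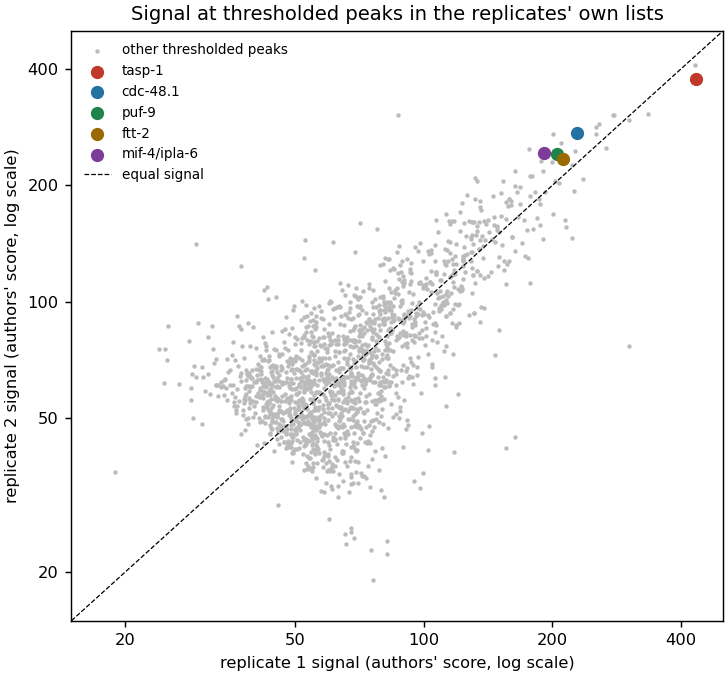
Signal at each thresholded summit in replicate 1 (x axis) and replicate 2 (y axis), both as the authors' score on log axes, for the 1647 thresholded summits found in both replicates, with the 5 promoter summits of the members in colour. Each value is that of the strongest replicate peak holding the summit, so some summits carry the score of a stronger neighbour. The tasp-1 point lies at 432.7 and 377.4, close to 1 grey point at the upper end and below the dashed line of equal signal, while the other 4 lie together above that line, between 191.4 and 228.1 in replicate 1 and between 234.4 and 272.8 in replicate 2.

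The order below cdc-48.1 differed between the replicates. In replicate 1 the order of the members was tasp-1, cdc-48.1, ftt-2, puf-9 and the mif-4 and ipla-6 peak, whereas in replicate 2 the mif-4 and ipla-6 peak came before puf-9 and ftt-2. The last 3 peaks changed places between replicates and their joint signals, 445.1, 439.5 and 435.5, therefore do not differ beyond the spread of the replicates. A higher score in replicate 2, seen at 4 of the 5 member summits, was also found at 14 of the 20 strongest and at 924 of the 1647 thresholded summits present in both replicates. The log2 ratio had a median of 0.063 over those 1647 (interquartile range -0.228 to 0.349), and those of cdc-48.1, puf-9, ftt-2 and mif-4 with ipla-6 (0.26, 0.23, 0.15 and 0.34) all lay inside that range, as did that of tasp-1. The joint list was called on both replicates together, so the replicate scores are not independent of the selection and carry no test.

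The replicate summits lay 3 to 13 bp apart, against a median of 34 bp (interquartile range 11 to 67.5) over the 1647. The 13 bp at cdc-48.1 and ftt-2 lay inside that range. The members were selected on signal, and this spacing was not compared with that of other strong peaks. Peaks were narrower than the usual width. The members' joint peaks were 273 to 347 bp wide, while the usual width in the thresholded list was 420 bp, and 0 of the 20 strongest peaks had that width (median 314 bp, 247 to 466). In the replicates the widths were 324 and 298 bp at tasp-1, 214 and 254 at cdc-48.1, 203 and 245 at puf-9, 285 and 286 at ftt-2, and 129 and 249 at mif-4 and ipla-6. The deposited −log10 q-value was 3.43 at all 5 summits and therefore did not separate them.

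The neighbours of the members in the order of promoter signals were mixed. Between tasp-1 and cdc-48.1 stood the ribosomal protein genes rpl-20 (643) and rpl-15 (575) and the pair nhl-2 and tag-340 (546), of which nhl-2 encodes a TRIM-NHL protein that acts with microRNA complexes. Between cdc-48.1 and puf-9 stood rpl-35 (455). The threshold of 20 summits fell where signals change little: rank 19 was at 437.9, rank 20 at 435.5, and ranks 21, 22 and 23, none of them in a promoter window of a protein-coding gene, at 433.8, 433.6 and 428.1. The next promoter summits outside the 20 were those of egg-5 (419; 176 and 249 in the replicates), cbp-1 (418; 188 and 231), which encodes a CBP/p300-type histone acetyltransferase, and hsp-1 (418; 225 and 193), which encodes an HSP70 chaperone. Against puf-9, ftt-2 and the mif-4 and ipla-6 peak, cbp-1 was lower in both replicates, egg-5 was lower in replicate 1 and higher in replicate 2, and hsp-1 was higher in replicate 1 and lower in replicate 2.

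**Figure D2:**
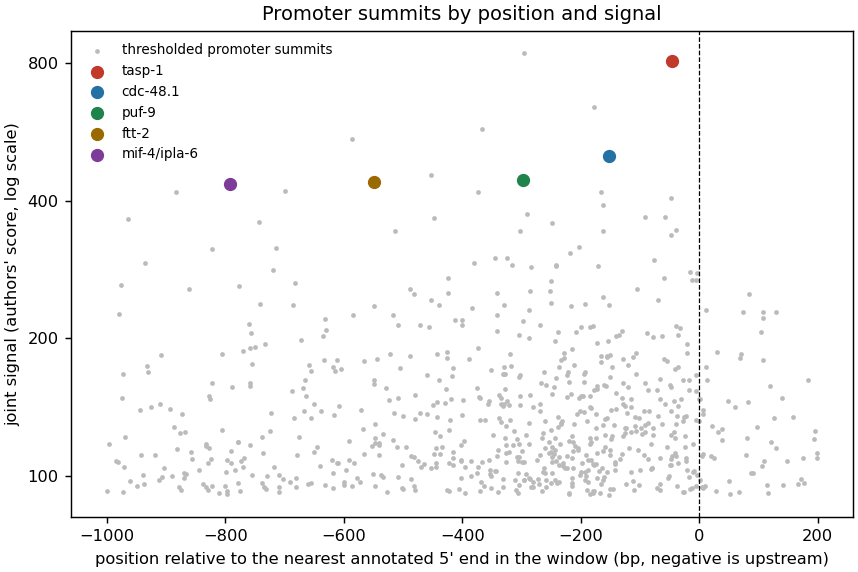
Joint signal (authors' score, log axis) of thresholded promoter summits against the position in bp relative to the nearest annotated 5′ end whose window holds the summit, where negative is upstream, with the members in colour. The member summits spread from 46 bp upstream at tasp-1 to 792 bp upstream at ipla-6, the nearer of the pair that shares a summit, on both sides of the median of 302 bp.

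The distance from summit to 5′ end varied widely among members. Over 689 thresholded promoter summits upstream of a protein-coding gene the median was 302 bp (interquartile range 165 to 547). The summits of tasp-1 (46 bp) and cdc-48.1 (152 bp) were nearer than the first quartile, that of puf-9 (297 bp) was at the median, and those of ftt-2 (549 bp), ipla-6 (792 bp) and mif-4 (867 bp) were beyond the third quartile.

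The setting of the summits differed too. The tasp-1 summit lay in a gap of 784 bp between tasp-1 and K01G5.10, genes read in opposite directions, with K01G5.10 starting 739 bp away on the other side. The mif-4 and ipla-6 summit lay near the middle of a gap of 1658 bp between those genes. The puf-9 summit lay in a gap of 1813 bp shared with dct-11, whose 5′ end was 1517 bp away and so outside the window. The ftt-2 summit lay in a gap of 12050 bp, with the next gene on that side, F52D10.4, starting 11502 bp away. The cdc-48.1 summit was the only one of the 5 between genes read in the same direction, in a gap of 704 bp, with the end of C06A1.6 553 bp away. Divergent neighbours were thus seen at 4 of 5 member summits, against 301 of 540 thresholded promoter summits between protein-coding genes (55.7%, Wilson interval 51.5 to 59.9), and with 5 summits no difference is read from these shares. The median gap over the 540 was 1506 bp (interquartile range 624.5 to 3686).

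At 2 members the summit lay inside annotated non-coding RNA genes. At puf-9 it was inside W06B11.7 and W06B11.9, which overlap on opposite strands. At ftt-2 it was inside F52D10.7, and the 5′ end of a further ncRNA gene, F52D10.12, lay 189 bp away. Such a place was found for 64 of the 540 promoter summits (11.9%, Wilson interval 9.39 to 14.9). The window of the snoRNA gene C06A1.9, which lies inside cdc-48.1, also held the cdc-48.1 summit, 495 bp upstream. ChIP-seq does not tell which of the genes at a summit, if any, responds to the binding.

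The summits in each gene and 5000 bp around it were then followed in all 4 lists. The tasp-1 locus held a single summit in the joint list, the promoter summit itself. Replicate 1 alone listed a further 4 there with signals of 20.8 to 32.6, and replicate 2 a further 2 at 16.5 and 18.6. Of the 867 genes with a thresholded promoter summit, which are 4.34% of all protein-coding genes, 13 (1.5%) had 1 joint summit in the same span, and the median was 7 (interquartile range 4 to 9, highest 32). The genes hpl-2, rnf-113 and dpy-28, which also lie within 5000 bp of tasp-1, had no joint summit in their promoter windows.

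The other loci held more. The cdc-48.1 locus had 12 joint summits, puf-9 had 10, ftt-2 had 6, mif-4 had 10 and ipla-6 had 9, the last 2 largely the same summits. Per 10 kb this came to 8.97 at cdc-48.1, 6.95 at puf-9, 5.12 at ftt-2, 9.29 at mif-4 and 7.23 at ipla-6, against 0.729 at tasp-1 and a median of 4.91 (interquartile range 3.4 to 6.54) over the 867 genes. The promoter summits were selected for their signal, so that they were the strongest in each locus and the following shares and ratios are descriptions of selected values. The promoter summit carried 42.0% of the summed joint signal at cdc-48.1, 50.4% at puf-9, 46.8% at ftt-2, 48.6% at mif-4 and 50.3% at ipla-6. The ratio of the promoter summit to the next strongest was 4.28 at cdc-48.1, 4.68 at puf-9 and 4.58 at mif-4 and ipla-6, and lower, 2.3, at ftt-2.

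**Figure D3:**
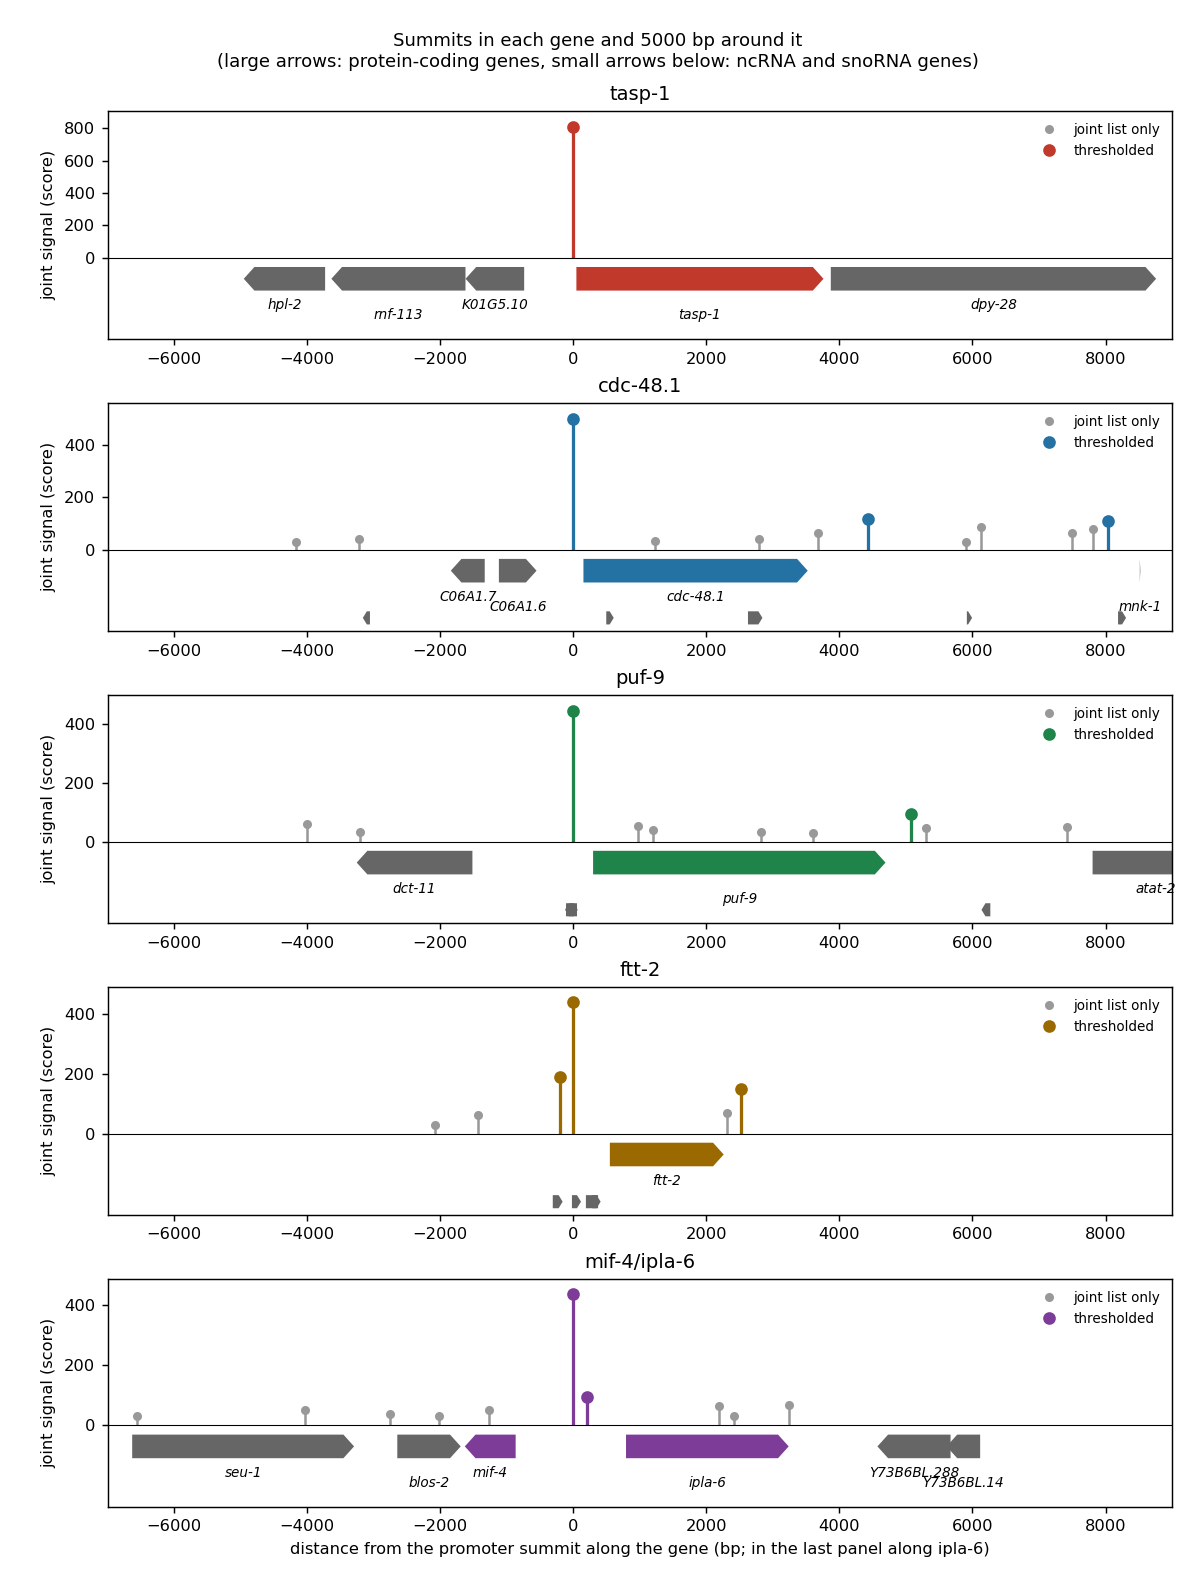
Summits of the joint list in each gene and 5000 bp around it, drawn as stems with the authors' signal score on the y axis against the distance in bp from the promoter summit along the gene. Coloured stems are thresholded summits, grey stems are in the joint list only, and arrows are genes. The tasp-1 panel has a single stem, and puf-9, ftt-2 and cdc-48.1 have a coloured stem past the 3′ end of the gene.

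Beside the 5 promoter summits the loci held 6 thresholded summits. The ftt-2 promoter had a second one 750 bp upstream of the gene, inside the ncRNA gene F52D10.9, with a joint signal of 191 (rank 282; 94.6 in replicate 1 and 105 in replicate 2). The stretch between mif-4 and ipla-6 had a second one 205 bp nearer to ipla-6, at 95.0 (rank 1523), which lay 587 bp upstream of ipla-6 and 1072 bp upstream of mif-4, beyond the window of mif-4. Both second peaks overlapped the promoter peak beside them. The ftt-2 promoter peak ended at 11606144 and the second began at 11606047. The mif-4 and ipla-6 peak ended at 6337029 and the second began at 6336856. A second thresholded summit within 250 bp was thus present at 2 of 5 member summits (Wilson interval 11.8 to 76.9%). The same held for 49 of the 751 thresholded promoter summits (6.52%). The members were selected on signal and were not compared with other strong peaks, so no difference is read from these shares. Past the 3′ end, ftt-2 had a thresholded summit at 266 bp with a signal of 149 (rank 543; 71.8 and 77.5 in the replicates), puf-9 at 382 bp with 95.2 (rank 1516) and cdc-48.1 at 909 bp with 117 (rank 949; 54.2 and 62.5). The last of the 6 lay 4517 bp past the 3′ end of cdc-48.1 at 108 (rank 1155), in the promoter window of mnk-1, a gene for a kinase of the MAP kinase-interacting type, 475 bp upstream of its 5′ end. Weaker joint summits lay inside several members. Those in a coding exon of ipla-6 (64.3) and in introns of puf-9 (53.4) and mif-4 (49.7) were in a peak of each replicate. Those inside cdc-48.1, at 40.2 in an intron and 33.5 in a coding exon, were in a peak of replicate 1 only. Joint summits also lay in the windows of atat-2 (48.4), a tubulin acetyltransferase gene downstream of puf-9, and blos-2 (39.3), a gene next to mif-4. The blos-2 summit was in a peak of replicate 2 only.

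Recurrence in the replicates was counted for each list. All 11 thresholded summits around the members lay in a peak of each replicate (11 of 11, Wilson interval 74.1 to 100%), as did 1647 of the 1667 in the whole list (98.8%), which the reproducibility threshold largely fixes. Of the 39 distinct joint summits around the members, 25 lay in a peak of each replicate (64.1%, Wilson interval 48.4 to 77.3), 7 in replicate 1 alone, 5 in replicate 2 alone and 2 in neither, against 11511 of 26266 in the whole joint list (43.8%). The 39 include the 11 thresholded summits, among them the promoter summits used for the selection. Thresholded summits are a smaller part of the whole joint list, 1667 of 26266, so no difference is read from these shares. The summits inside coding exons of puf-9, at 37.8 and 32.3, were the 2 that lay in a peak of neither replicate.

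**Figure D4:**
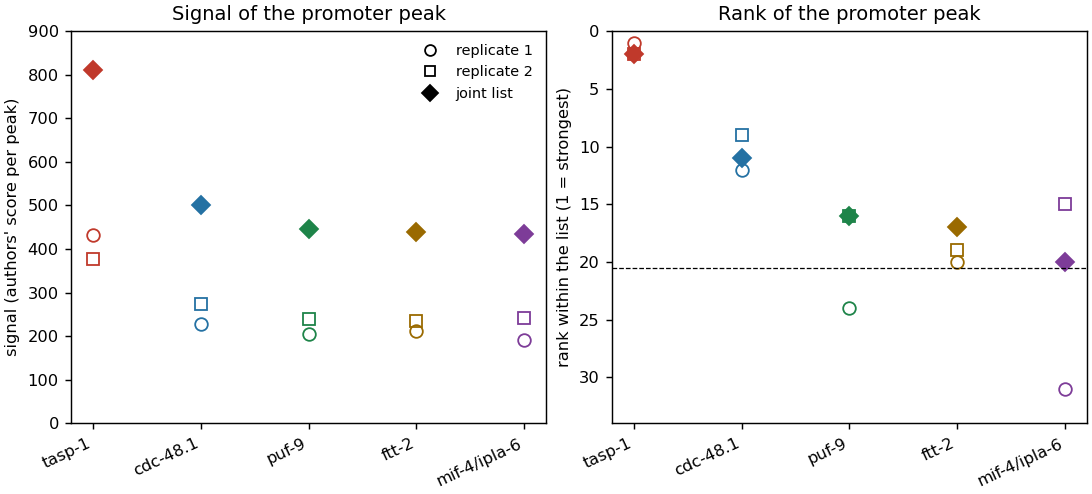
Signal (authors' score, left) and rank within the list (right, strongest at the top, dashed line below rank 20) of each member's promoter summit in the joint list, replicate 1 and replicate 2. The tasp-1 values, 810.0, 432.7 and 377.4, are above those of the other members in each list, and those of puf-9, ftt-2 and mif-4 with ipla-6 are close to each other, with ranks in replicate 1 of 24 at puf-9 and 31 at mif-4 and ipla-6 below the line.

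The base composition of the printed windows was not uniform. The G and C share was 56.4% at tasp-1, 53.5% at puf-9, 49.5% at ftt-2 and 41.6% at both cdc-48.1 and the mif-4 and ipla-6 summit. The median over the 751 promoter summits was 47.5% (interquartile range 41.6 to 52.5) and over the 20 strongest summits 51.5%. The number of CG steps was 8, 6, 9, 6 and 4 in the order of the printed sequences, against a median of 6 (interquartile range 4 to 8).

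The word GACGCA was found in 0 of the 5 member windows, although 12.4% of thresholded and 15.4% of promoter summits had it within 50 bp, against 2.58% of windows of the same length placed 302 bp upstream of 19972 protein-coding genes. The word CACGTG was found in 1 of 5, at the very summit between mif-4 and ipla-6, against 8.16% of thresholded summits and 1.54% of promoter windows. The word GAGAGA was found in 1 of 5, at tasp-1 on the downstream side of the summit, against 25.5% of thresholded summits and 6.12% of promoter windows. Both TGATAA and GTAAACA were found in 0 of 5, against 8.94% and 1.92% of thresholded summits and 10.4% and 1.41% of promoter windows. With 5 windows, counts of 0 and 1 do not tell the members from the rest of the list. A match is a description of letters and not a binding site.

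Over a wider window, repeated words were present at 2 of the 5 summits, and these 251 bases are printed to show their spacing. At puf-9 (chrX:5841170-5841420, plus strand) GACGCA, in capitals, stands on both flanks of the summit, 212 bp apart and more than 100 bp from the summit on each side. At the mif-4 and ipla-6 summit (chrIV:6336736-6336986, plus strand) CACGTG, in capitals, stands at the summit and again 83 bp toward mif-4.
puf-9: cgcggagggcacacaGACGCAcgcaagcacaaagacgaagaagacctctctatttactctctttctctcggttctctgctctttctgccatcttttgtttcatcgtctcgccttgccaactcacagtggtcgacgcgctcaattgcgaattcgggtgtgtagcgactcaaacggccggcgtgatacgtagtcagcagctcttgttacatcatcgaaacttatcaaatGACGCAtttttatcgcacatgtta
mif-4/ipla-6: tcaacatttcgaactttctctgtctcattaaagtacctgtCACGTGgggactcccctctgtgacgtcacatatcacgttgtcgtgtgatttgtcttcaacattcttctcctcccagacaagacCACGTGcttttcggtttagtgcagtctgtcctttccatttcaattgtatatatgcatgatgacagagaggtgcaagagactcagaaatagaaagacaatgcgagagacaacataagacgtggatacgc

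Within 125 bp, 3.36% of thresholded and 4.53% of promoter summits held GACGCA at 2 or more places, and 2.16% and 1.73% held CACGTG at 2 or more. In the whole promoter windows of 1201 bp, GACGCA was found at puf-9 and ftt-2 (2 of 6 members, against 25% of all protein-coding promoters) and CACGTG at puf-9, mif-4 and ipla-6 (3 of 6, against 18.4%). GAGAGA and TGATAA were each found in 5 of the 6 windows, against 50.9% and 72.0% of all. The windows of mif-4 and ipla-6 overlap, and their CACGTG matches and 1 GAGAGA match are the same stretches of DNA counted for both genes. GTAAACA was found at ftt-2 alone, 63 bp before the start of the gene and far from the summit, against 15.1% of all.

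Words shared among the member windows were counted, with no such count made for other sets of windows. Counted on both strands, 358 six-letter words were found in 1 of the 5 windows alone, 49 in 2, 4 in 3 and 0 in 4 or 5. Both GCCAAC and AGCGCG were shared by tasp-1, puf-9 and ftt-2, and were present in 4.56% and 6.0% of all thresholded summit windows. The word TTGAAA was shared by tasp-1, cdc-48.1 and the mif-4 and ipla-6 summit (13.1% of thresholded windows), and TCAACA by cdc-48.1, ftt-2 and the mif-4 and ipla-6 summit (7.38%). These 4 words were picked from the same windows and no test was made of them.

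Finally, genes related to the members by family or pathway were examined, with 64 such genes besides the members in 6 lists. A thresholded summit lay in the promoter window of 10 of the 64 (15.6%), where 4.34% of all protein-coding genes had one, and a joint summit in the windows of 36 (56.2%), against 35.0% of all. The lists were chosen with earlier results known, so the difference in shares carries no test. All had lower signals than the members, which the selection of the members among the 20 strongest summits largely fixes.

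In the list around tasp-1, which holds the SET1/MLL histone methyltransferases and subunits of their complexes, set-16 alone of 9 had a thresholded summit. The set-16 gene encodes the worm MLL3/4-type methyltransferase, and its summit, 181 bp upstream, had a joint signal of 417 (rank 27) with 203 in replicate 1 and 205 in replicate 2. That summit also lies in the promoter window of drr-2, whose 5′ end is nearer to it, so that set-16 has no thresholded summit when each summit is given to the nearest 5′ end alone. In the joint list 6 of the 9 had a summit.

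Among 21 further CDC-48 ATPases and cofactors, 3 had a thresholded summit. These were ubql-1 (181, rank 334), in a window shared with pdi-3, and ubxn-3 (176, rank 360), which encode ubiquilin-type and UBX-domain proteins that work with ubiquitinated clients, and ufd-3 (125, rank 820), a cofactor of the ATPase. The paralog cdc-48.2 had a joint summit at 33.2 (rank 19462), seen as a peak in replicate 2 and not in replicate 1, against 228.1 and 272.8 at cdc-48.1. In the joint list 10 of the 21 had a summit.

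Among 9 further Pumilio-family genes 0 had a thresholded summit and 4 a joint one, the strongest of these at puf-12 with 44.2. The MIF family showed the same pattern, with 0 of 3 thresholded, joint summits at mif-2 (52.4) and mif-3 (31.1) and none at mif-1. Among the 7 other lipases, atgl-1, the adipose triglyceride lipase gene, had a thresholded summit at 100 (rank 1362; 54.8 and 50.2 in the replicates), 890 bp upstream. The ipla-3 summit, at 90.3 (rank 1696), fell just below the threshold, and 5 of the 7 had a joint summit.

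The list around ftt-2 had the most thresholded summits, at 5 of 15 genes of the 14-3-3 family and the insulin pathway. This was 33.3%, against 4.34% of all protein-coding genes. Genes with more annotated transcripts can have more windows, and these shares were not adjusted for that. The daf-16 gene, whose FOXO product FTT-2 binds, had a summit of 293 (rank 85; 131 and 160 in the replicates), 381 bp upstream of the nearest 5′ end among its 11 annotated transcripts. The kinase gene akt-2 had one of 149 (rank 541) at 664 bp, and par-5, the other 14-3-3 gene, one of 127 (rank 809; 59.5 and 74.3) at 321 bp, which is nearer to the 5′ end of M117.3 and is lost to par-5 under the nearest 5′ end alone. The summits of skn-1 (116) and hlh-30 (111), genes for stress and autophagy transcription factors, lay inside the gene. That of skn-1 was 553 bp upstream of the nearest 5′ end, and that of hlh-30 was 20 bp past the nearest 5′ end. In the joint list 9 of the 15 had a summit.

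**Figure D5:**
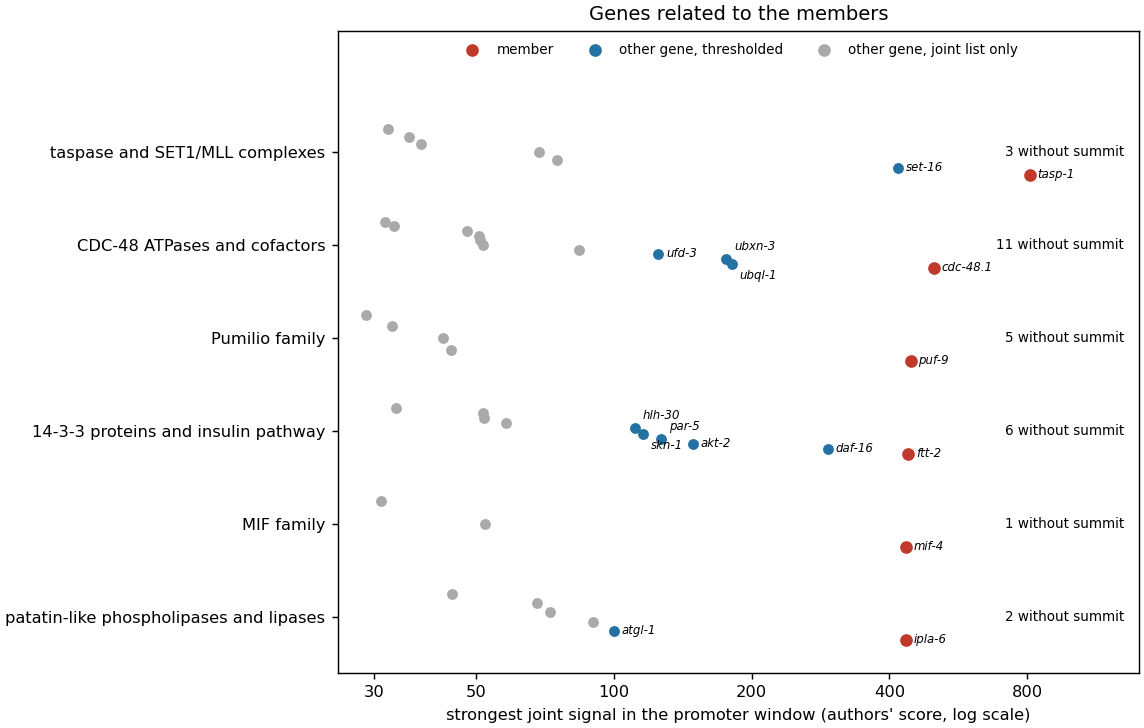
Strongest joint signal (authors' score, log axis) in the promoter window of each gene of the 6 lists, with members in red, other genes with a thresholded summit in blue and those in the joint list only in grey. The members lie at the right because they were selected on this signal. Among the other genes set-16, at 417, and daf-16, at 293, have the highest values.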

How the data were processed

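Genomic DNA from SOMI-1-eGFP immunoprecipitation was measured in 2 replicates, as 4 peak lists on ce11, per the labels. Text files that accompany the deposited lists state that the authors called peaks in each replicate and in both jointly, every time against 1 control alignment, and applied an irreproducible discovery rate threshold to obtain the thresholded list. The control alignment itself was not used here. For the aligner, caller, settings and depth, nothing is given in the sources used here. Peak signal is the score that the authors deposited, with no stated scale. The −log10 q-value was deposited by the authors and used in no test.

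Summits were taken as the position given within each peak (1-based), and ranked by signal. Genes came from Ensembl release 115 (WBcel235) and sequences from RefSeq. A summit recurred in a replicate if it lay inside a peak there. Replicate signals and summit distances of thresholded summits were taken from the strongest replicate peak that held the summit. Where peaks overlap, a weaker summit can thus carry the values of its stronger neighbour. Words were counted on both strands within 50 bp of summits, with Python 3.11.15 and pandas 2.3.3, checked on simulated data. Wilson intervals (95%) cover counting error only, since neighbouring peaks are not independent. With 1 group and members selected on signal, no test was made.

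Members and gene lists were chosen with earlier results of these data known. Named are the members, genes at or next to their summits, neighbours with joint summits, genes next in rank, and list genes with thresholded summits; mif-2, mif-3, puf-12, ipla-3, cdc-48.2, drr-2, M117.3, pdi-3, akt-1, pdk-1 and the genes near tasp-1 without a summit were named after their values were seen. Of 73 list genes 70 were matched; puf-2, puf-4 and puf-10 were not. Window sizes, flanks, thresholds and leaving out each replicate were varied.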

Additional observations from a re-analysis of the deposited data

How the results depend on the processing

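Using 1 replicate's own list in place of the joint list moved the rank of the promoter summit to between 1 and 2 at tasp-1, 9 and 12 at cdc-48.1, 16 and 24 at puf-9, 19 and 20 at ftt-2, and 15 and 31 at mif-4 and ipla-6. The number of members among the 20 strongest ran from 3 (replicate 1's list: tasp-1, cdc-48.1 and ftt-2) to 6. It was 3 (tasp-1, cdc-48.1 and puf-9) with a promoter reaching 500 bp before and 100 bp after the 5′ end, 1 (tasp-1) with the 10 strongest summits, and 5 with the nearest 5′ end alone, which drops mif-4. Joint summits around a gene depended on the flank: with 2000 bp there were 5 at each of cdc-48.1, mif-4 and ipla-6, and with 10000 bp 3 at tasp-1 and 21 at cdc-48.1. In the replicates' own lists there were 3 to 5 at tasp-1, 10 to 13 at cdc-48.1, 9 to 12 at puf-9, 6 to 11 at ftt-2, 8 to 9 at mif-4 and 7 to 9 at ipla-6. The 25 summits found in both replicates became 20 when a replicate summit within 100 bp was required, and 17 within 50 bp. With thresholded summits alone there were 11, which the reproducibility threshold largely fixes. The 10 related genes became 5 with the shorter window (7.81%, against 3.04% of all protein-coding genes). They became 5 with the 800 strongest peaks (2.23% of all), 36 without the threshold and 9 to 10 in the replicates' own lists. Giving each summit to the nearest 5′ end alone, at any distance, gave 10 (6.54% of all), with akt-1 and pdk-1 in place of set-16 and par-5. The nearest thresholded summits of akt-1 and pdk-1 lay 2321 and 1889 bp away, outside the promoter window. The unchanged count of 10 therefore rests on genes without a thresholded summit in the window. Member summits with GACGCA numbered 0 within 25, 50 and 100 bp and in each replicate's own list, but within 125 bp puf-9 had it at 2 places. No paired analysis was possible because there was 1 group. The causes were not tested, and the unknown depth limits what the weak summits show.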

Other observations

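Thresholded summits just past the 3′ end were counted, a feature picked after its values were seen. Within 1000 bp past the 3′ end, 3 of 6 members (cdc-48.1, puf-9 and ftt-2) had one (Wilson interval 18.8 to 81.2%). The same held for 63 of the 861 other genes with a thresholded promoter summit (7.32%) and 399 of all 19973 protein-coding genes (2.0%). The members were selected on signal and were not compared with other genes with strong peaks, so no difference is read from these shares. The 3 summits had G and C shares of 45.5%, 30.7% and 24.8% in the 101 bases around them and held none of the 5 words searched.

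The summit 4517 bp past cdc-48.1, in the window of mnk-1, held CACGTG within 50 bp and had a G and C share of 35.6%. The second summit between mif-4 and ipla-6 held GAGAGA, and the second ftt-2 promoter summit, at 52.5% G and C, held none of the 5 words.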
